A study of Mus musculus with 91 samples.

Results

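The genes described here make, sense and break down prostaglandins. They are *Ptgds*, *Ptgs1*, *Ptgs2*, *Ptges*, *Ptger2*, *Ptger4*, *Hpgd* and *Ptgr1*, 8 genes chosen by symbol, and for each the array cluster (the probes summarised as a transcript) annotated with that gene alone was to be used. Of these 8 genes, 7 had such a cluster, exactly 1 each, among the 19938 genes with a cluster of their own, and all 7 were among the 15359 genes tested. The cluster of *Ptgs1* was not listed in the annotation used, so *Ptgs1* was not analysed here. *Ptgds* and *Ptges* lie on chromosome 2, *Ptgs2* on chromosome 1, *Ptger2* on chromosome 14, *Ptger4* on chromosome 15, *Hpgd* on chromosome 8 and *Ptgr1* on chromosome 4.

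The study measured RNA of cells sorted from fetal mouse gonads on Affymetrix gene arrays, to follow how the cell types of the gonad become those of a testis or an ovary. Cells of XX and XY gonads were taken on 3 embryonic days (E11.5, E12.5, E13.5), with 3 arrays for each sex, stage and population, 90 arrays in 30 groups. Each array held cells pooled from the gonads of at least 1 litter, and the methods call the arrays of a group biological replicates.

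All cells were picked by a fluorescent reporter. Supporting cells, the lineage of Sertoli and granulosa cells, came from the transgene Tg(Sry-EGFP)92Ei, except those of XY gonads after E11.5, for which Tg(Sox9-ECFP)2Capl was used. XX and XY supporting cells of the later stages therefore differ in reporter as well as in sex, and so do XY supporting cells before and after E11.5, which cannot be told apart from stage. Germ cells came from Tg(Pou5f1-EGFP)2Mnn (*Oct4-EGFP*) and endothelial cells from Tg(Kdr-mCherry)1Medi (*Flk1-mCherry*). The supporting and germ cell embryos were progeny of CD-1 and C57BL/6J mice, those of the interstitial cells of CD-1 and a mixed background, and the *Flk1-mCherry* embryos were CD-1. Another population came from Tg(Acta2-EYFP)Jll (*αSma-EYFP*), in which the promoter of smooth muscle actin drives the reporter, with FVB as the labelled strain. The study describes this population as apparently mixed at early stages, with supporting as well as interstitial cells, and allows that the transgene may be leaky. It also describes Leydig cells in the XY endothelial fraction. Mesonephros, the tissue beside the gonad, was kept by the labels in the germ cell samples of E11.5, and the study's methods describe it as kept for germ cell sorts with no limit to a stage. It was kept in part in the endothelial samples of E11.5. Because populations differ in reporter and strain, a difference between populations cannot be told apart from these.

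Prostaglandins are lipid signals made from arachidonic acid, which phospholipases release from membranes. Cyclooxygenases, among them the inducible enzyme of *Ptgs2*, turn it into an unstable intermediate, from which prostaglandin D synthase (*Ptgds*) and prostaglandin E synthase (*Ptges*) make the prostaglandins D and E. Cells sense prostaglandin E through receptors such as those of *Ptger2* and *Ptger4*, and the enzymes of *Hpgd* and *Ptgr1* inactivate prostaglandins in turn. In the fetal testis, prostaglandin D is known as a signal of Sertoli cells, made alongside the SOX9 program.

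Endothelial, germ and XY supporting cells carried the markers of their labels. The mean of 9 endothelial genes lay between 9.97 and 10.44 (log2 intensity) in the endothelial groups and at 7.02 or lower in all others, and the mean of 8 germ cell genes lay between 10.22 and 10.94 in the germ cell groups and at 7.24 or lower elsewhere. The mean of 10 Sertoli genes was 9.20, 9.91 and 9.76 in XY supporting cells of the 3 stages in turn. The mean of 8 smooth muscle genes did not set *αSma-EYFP* groups (7.64 to 8.07) apart from interstitial groups (7.49 to 8.06). The mean of 3 Y-linked genes was at most 6.43 on any XX array and at least 7.45 on any XY array. Replicate 2 of the E11.5 XY endothelial cells stood farthest from its group. Levels here are log2 intensities of a fixed amount of amplified RNA, so fewer cells of a type and less RNA per cell cannot be told apart.

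Levels of the 7 genes varied most between populations and, for *Ptgds*, between the sexes. All differences were tested with limma in 1 model over the 90 arrays. A difference was called when the p-value, adjusted by Benjamini and Hochberg over all 16859 tested clusters, was under 0.05 and the fold over 1.5. Between XY and XX cells of the same population and stage, 18 of 105 tests of these genes were called, 17 of them higher in XY cells and 1 lower, where 5.28% of all tests were called. The median log2 difference (XY minus XX) of the 105 tests was 0.09, against 0.01 over all tested clusters. Between successive stages 13 of 140 were called (5 rises and 8 falls, background 2.77%), and between pairs of the 4 main populations 94 of 252 (background 22.8%). The sex difference itself changed from E11.5 to E13.5 in 7 of 35 tests (background 5.73%). These counts and those below are a description, since the genes were chosen with earlier results of these data known. Tests of the same gene are also not independent. *Ptgds* gave 7 of the 18 calls between sexes, and *Hpgd* and *Ptgr1* gave 28 and 29 of the 94 between populations.

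**Figure D1:**
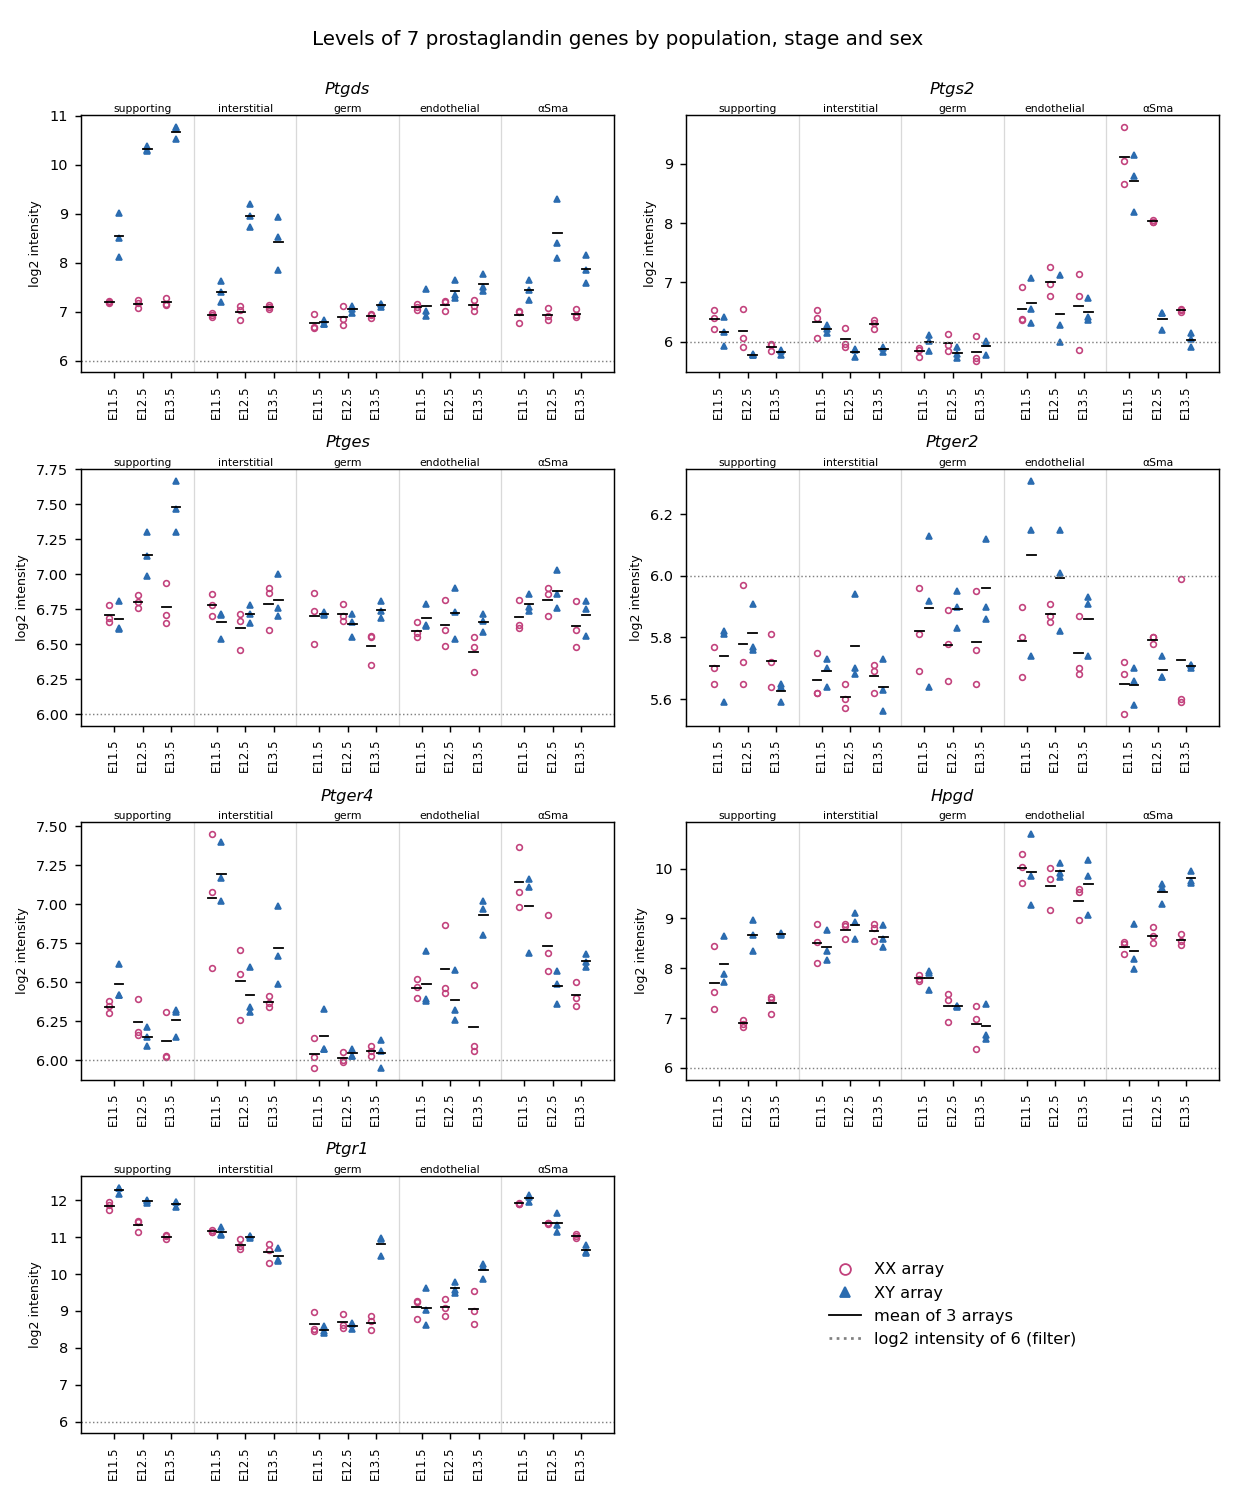
Log2 intensity of each of the 7 genes on every array (vertical axis), by population and stage (horizontal axis), with XX arrays as open circles, XY arrays as filled triangles, the mean of 3 arrays as a bar and the filter at a log2 intensity of 6 as a dotted line. The vertical axes differ between genes, since levels of different probes cannot be compared. *Ptgds* lay between 10.28 and 10.77 in XY supporting cells after E11.5, while *Ptgs2* reached between 8.19 and 9.62 in *αSma-EYFP* cells of E11.5.

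Of the synthesis genes, *Ptgds* showed the largest sex difference of the 7, in supporting cells. At E11.5 its log2 intensity on the 3 XY arrays was 9.01, 8.50 and 8.11, and on the 3 XX arrays 7.17, 7.19 and 7.21. The XY array with 9.01, replicate 1, was among those farthest from their group over all tested clusters, with a low limma array weight (0.237). At E12.5 it was 10.38, 10.28 and 10.30 in XY cells and 7.17, 7.07 and 7.25 in XX cells. At E13.5 it was 10.77, 10.74 and 10.52 in XY cells and 7.29, 7.15 and 7.13 in XX cells. XX supporting cells thus stayed within a narrow band at the level of XX cells of other populations, and the XX and XY arrays did not overlap at any stage. *Ptgds* was 2.55-fold higher in XY cells at E11.5 (95% confidence interval 1.99 to 3.25, limma adjusted p = 1.8e-08), 8.91-fold higher at E12.5 (6.97 to 11.4, adjusted p = 3.6e-24) and 11.2-fold higher at E13.5 (8.79 to 14.4, adjusted p = 2.9e-26). Among all clusters, 3.77%, 9.67% and 8.63% were called higher in XY supporting cells at these stages. These intervals and p-values use 1 estimate of the spread shared by all 30 groups. At E11.5 the XY arrays spread more widely than the XX arrays, which the interval does not reflect. Of the 7 genes, *Ptgds* was the only one called between XX and XY cells at E11.5 in any population. Its difference grew by 2.14 on the log2 scale from E11.5 to E13.5 (95% confidence interval 1.64 to 2.64, adjusted p = 4.1e-10). In XY supporting cells it rose 3.44-fold from E11.5 to E12.5 (adjusted p = 1.1e-12), a step at which the reporter also changed, and the step to E13.5 was not called.

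The 250 bases before the RefSeq start of *Ptgds* are shown because this gene carries the main difference, and those of *Ptges* because it was also higher in XY supporting cells. Both come from RefSeq's promoter table of build GRCm38.p6, which holds a promoter for all 8 genes. Motifs were searched on both strands, and capitals mark the matches. *Ptgds*, chr2:25469750-25469999, minus strand, with TGACTCA (AP-1) in capitals:
Ptgds: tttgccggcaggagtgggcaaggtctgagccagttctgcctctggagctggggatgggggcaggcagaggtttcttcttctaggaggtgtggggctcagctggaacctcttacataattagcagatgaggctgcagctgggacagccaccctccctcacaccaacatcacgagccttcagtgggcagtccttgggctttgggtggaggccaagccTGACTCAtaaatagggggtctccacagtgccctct
*Ptges*, chr2:30903298-30903547, minus strand, with AACAAT (a SOX core motif) in capitals:
Ptges: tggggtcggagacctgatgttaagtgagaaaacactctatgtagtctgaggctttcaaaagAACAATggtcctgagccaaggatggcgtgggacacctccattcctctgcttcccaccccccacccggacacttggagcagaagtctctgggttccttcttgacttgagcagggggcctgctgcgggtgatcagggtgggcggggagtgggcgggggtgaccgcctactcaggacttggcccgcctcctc
TGACTCA on either strand was found in the same stretch of 4.46% of 32851 RefSeq promoters, and AACAAT in 9.42%. Also searched were ACAAAG (16.5% of promoters), TGACGT (6.47%), CACGTG (6.02%), AAGGTCA (4.08%) and TATAAA (12.4%), none of which was in either stretch. In the same stretch of the other genes AACAAT was found in *Ptger2* (bases -93 to -88 from the start), and none of the motifs in *Ptgs1*, *Ptgs2*, *Ptger4*, *Hpgd* or *Ptgr1*, so that 3 of the 8 genes held a match. No motif searched overlapped another in them. A match describes the letters of this window and no binding was measured.

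In interstitial and *αSma-EYFP* cells *Ptgds* was also higher in XY gonads, at lower levels. At E11.5 the XY interstitial arrays read 7.63, 7.41 and 7.20 and the XX arrays 6.98, 6.93 and 6.89, without overlap, and the log2 difference of 0.48 was not called (0.13 to 0.83, adjusted p = 0.495). In XY interstitial cells of E12.5 it measured 8.95, 9.19 and 8.72, against 7.12, 7.04 and 6.83 in XX cells, a 3.88-fold difference (3.04 to 4.96, adjusted p = 8.3e-14), where 2.15% of clusters were called higher in XY cells. At E13.5 it measured 8.93, 7.85 and 8.52 against 7.09, 7.06 and 7.14, 2.52-fold higher (1.97 to 3.22, adjusted p = 1.9e-08), where 3.48% were called higher. In *αSma-EYFP* cells of E12.5 the XY arrays gave 9.30, 8.10 and 8.40 and the XX arrays 6.84, 7.07 and 6.92, a 3.16-fold difference (2.47 to 4.04, adjusted p = 4.7e-11). The XY arrays spread more widely than the XX arrays in these comparisons, and the sexes did not overlap. At E13.5 the difference in *αSma-EYFP* cells was 1.88-fold (1.47 to 2.40, adjusted p = 1.4e-04), where 1.61% were called higher. Called higher in XY cells were 1.72% of all clusters in *αSma-EYFP* cells at E12.5, and of the 7 genes *Ptgds* and *Hpgd*. From E11.5 to E12.5 *Ptgds* rose 2.90-fold in XY interstitial cells (adjusted p = 1.3e-09) and 2.23-fold in XY *αSma-EYFP* cells (adjusted p = 2.5e-06). It then fell by 0.73 on the log2 scale in XY *αSma-EYFP* cells (adjusted p = 0.0145), with overlapping arrays. Without XY replicate 1 of E12.5 that fall was 0.39 (adjusted p = 0.883), without replicate 1 of E13.5 0.73 (adjusted p = 0.0598) and without replicate 2 of E13.5 0.59 (adjusted p = 0.213).

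Sertoli genes moved with *Ptgds* in these populations after E11.5. Of 10 Sertoli genes (among them *Sox9*, *Amh* and *Dhh*), 8 were higher in XY than in XX interstitial cells at E12.5 and 5 at E13.5, and none was lower. Their mean was 8.69 and 8.14 in XY interstitial cells of these stages, against 7.0 in XX cells of either stage. In *αSma-EYFP* cells 7 of the 10 were higher at E12.5 and 3 at E13.5, with means of 8.04 and 7.39 against 6.94 and 6.91. At E11.5, where *Ptgds* was called in neither population, 5 of the 10 were already higher in XY interstitial and 4 in XY *αSma-EYFP* cells. Over the 30 group means, *Ptgds* and the mean of the Sertoli list had a Pearson correlation of 0.93, given as a description, since the groups share populations and normalization. By antibody stains of sorted cells, the study estimated a variable share of supporting cells, a minority, in the XY interstitial sort of E13.5. On the 3 arrays of that group the Sertoli list read 8.63, 7.65 and 8.16, in the same order as *Ptgds*. The part of Sertoli cells or their RNA in the *Ptgds* of these sorts was not tested here.

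Germ and endothelial cells gave no called sex difference of *Ptgds*. Its 18 germ cell arrays lay between 6.67 and 7.16. Its 9 XX endothelial arrays lay between 7.02 and 7.25 and its 9 XY endothelial arrays between 6.91 and 7.77. In XY gonads of E13.5 the group means ran from supporting (10.68) over interstitial (8.43), *αSma-EYFP* (7.87) and endothelial (7.57) to germ cells (7.13). Supporting exceeded interstitial cells 4.75-fold (adjusted p = 4.7e-17). The steps from interstitial to *αSma-EYFP* cells (0.56 lower on the log2 scale, 95% confidence interval 0.21 to 0.92 lower) and from endothelial to germ cells (0.44 lower, 0.08 to 0.79 lower) were under the fold limit. *Ptgds* was higher in XY supporting cells than in each of the 3 other main populations at all 3 stages. Such an excess was called for 2.53%, 4.13% and 4.35% of clusters in XY supporting cells of the 3 stages in turn, taken singly, and for 4.78% of clusters per group over all 24 groups of the 4 populations. In XX gonads no pair of populations differed in *Ptgds* by the limits used.

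After E11.5 the sex difference of *Ptgds* was larger in supporting cells than in each other population. Only in supporting cells did the reporter differ between XX and XY cells at these stages, so this excess cannot be told apart from reporter. At E13.5 it exceeded that of interstitial cells by 2.16 on the log2 scale (95% confidence interval 1.65 to 2.66, adjusted p = 4.3e-10), that of *αSma-EYFP* cells by 2.58 (2.08 to 3.08, adjusted p = 7.0e-13), that of endothelial cells by 3.05 (adjusted p = 6.8e-16) and that of germ cells by 3.27 (adjusted p = 1.9e-17). At E12.5 it exceeded each of them by 1.20 to 3.01, with adjusted p-values of 2.7e-04 or smaller. At E11.5 it exceeded that of germ cells by 1.34 (adjusted p = 1.3e-04) and that of endothelial cells by 1.31 (adjusted p = 1.4e-04), while the excess over *αSma-EYFP* cells, 0.83, was not called (adjusted p = 0.0685). The excess over interstitial cells at E11.5, 0.87 (adjusted p = 0.0387), was no longer called with array weights (0.70, adjusted p = 0.163) or without any 1 of 10 of its 12 arrays, at 0.63 to 0.89 (adjusted p from 0.0538 to 0.25). Over the 7 genes, 25 of 84 such comparisons of supporting cells with another population were called, against 11.1% of all. These comparisons use the same sex differences of supporting cells repeatedly, and they were added after the data had been seen.

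**Figure D2:**
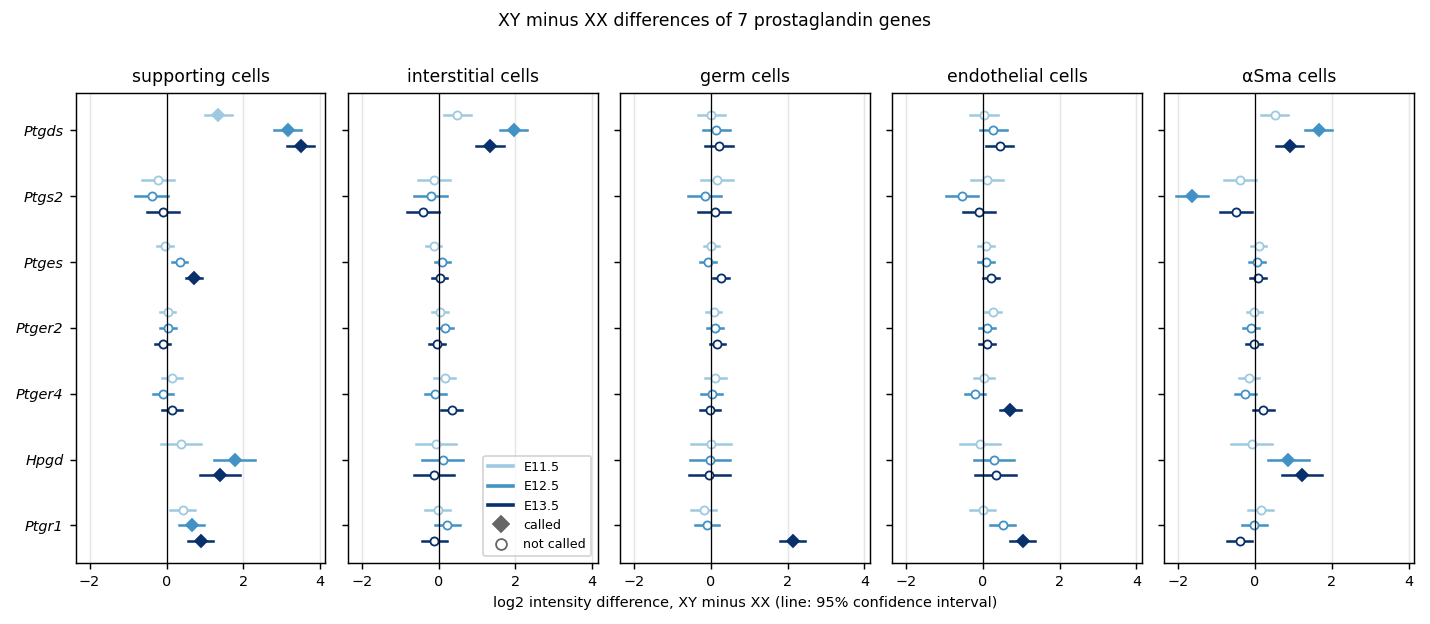
Log2 difference in intensity between XY and XX cells (horizontal axis, with 95% confidence intervals from limma as lines) for the 7 genes (vertical axis) in each population, with stages from light to dark blue and called differences as filled diamonds. *Ptgds* in supporting cells lies at 1.35, 3.16 and 3.49. The sole called difference below 0 is *Ptgs2* in *αSma-EYFP* cells at E12.5 (-1.64).

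*Ptges*, which makes prostaglandin E, was higher in XY supporting cells late, by less than *Ptgds*. At E13.5 it measured 7.47, 7.67 and 7.30 in XY and 6.94, 6.65 and 6.71 in XX supporting cells, without overlap. It was 1.63-fold higher in XY cells (1.42 to 1.88, adjusted p = 2.7e-08), and 4 of the 7 genes (*Ptgds*, *Ptges*, *Hpgd* and *Ptgr1*) were called higher there, against 8.63% of all clusters. In the same comparison 4 of 6 genes of the fetal Leydig list, which includes *Nr5a1* and *Scarb1*, were higher in XY cells. At E11.5 3 of these 6 were already higher in XY supporting cells and 1 was lower. Of 13 genes of the immediate early response, 1 was higher and 6 were lower at E13.5. The part of either list in these values was not tested. At E12.5 the XY arrays read 7.13, 7.30 and 6.99 and the XX arrays 6.76, 6.85 and 6.80, a difference of 0.34 that was under the fold limit (adjusted p = 0.00654). At E11.5 the sexes overlapped. The sex difference of *Ptges* in supporting cells was 0.74 larger at E13.5 than at E11.5 (95% confidence interval 0.46 to 1.03, adjusted p = 6.2e-05). In the other 4 populations its arrays lay between 6.30 and 7.03. XY supporting cells of E13.5 exceeded interstitial cells 1.58-fold, germ cells 1.66-fold and endothelial cells 1.77-fold (adjusted p of 2.1e-07 or smaller). Without XY supporting replicate 2 the excess over interstitial cells was 0.56 on the log2 scale, under the fold limit (adjusted p = 4.5e-05). Across the 30 group means, *Ptges* and *Ptgds* had a Pearson correlation of 0.77.

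*Ptgs2*, the inducible cyclooxygenase, stood out in *αSma-EYFP* cells, and there it fell with stage. In XX cells it measured 9.04, 8.66 and 9.62 at E11.5, 8.05, 8.02 and 8.02 at E12.5, and 6.55, 6.51 and 6.53 at E13.5. In XY cells it measured 9.15, 8.80 and 8.19 at E11.5, 6.20, 6.48 and 6.49 at E12.5, and 6.04, 5.92 and 6.15 at E13.5. Both sexes started high and ended near the level of the other populations, and the XY arrays were low a stage earlier than the XX arrays. In XX cells *Ptgs2* fell 2.11-fold from E11.5 to E12.5 (adjusted p = 5.6e-04) and 2.83-fold from E12.5 to E13.5 (adjusted p = 3.0e-06). In XY cells it fell 5.01-fold at the first step (adjusted p = 2.5e-13). At E12.5 it was 3.12-fold lower in XY than in XX cells (2.33 to 4.17, adjusted p = 1.1e-08), with no overlap, where 1.83% of clusters were called lower. At E11.5 and E13.5 the sexes were not called different.

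Compared with interstitial cells of the same sex and stage, 7 of 42 tests of the 7 genes were called, all higher in *αSma-EYFP* cells, where 2.08% of all tests were called. *Ptgs2* was 6.81-fold higher in XX cells of E11.5 (adjusted p = 1.1e-16), 3.98-fold in XX cells of E12.5 (adjusted p = 9.6e-11) and 5.68-fold in XY cells of E11.5 (adjusted p = 8.3e-15). The 18 interstitial arrays lay between 5.74 and 6.53, below all 9 of those *αSma-EYFP* arrays. Their group means in the 3 comparisons were 6.34, 6.04 and 6.21, and at E12.5 the XX interstitial cells exceeded 6 on 1 of 3 arrays, so these folds are set against a level near the filter. Strain and reporter cannot be told apart from the population in this comparison. The labels give FVB for *αSma-EYFP* cells, and the study's methods a line of mixed FVB and CD-1 origin.

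Genes of the immediate early response and of cell handling moved with *Ptgs2* in some of these comparisons and not in others. The mean of 13 such genes was 9.86 in XX and 9.85 in XY *αSma-EYFP* cells of E11.5, against 9.25 and 9.04 in interstitial cells, and 6 of the 13 were higher in XX and 8 in XY *αSma-EYFP* cells, with none lower. *Atf3*, a stress-induced transcription factor, had means of 10.90 and 10.76 on the XX and XY *αSma-EYFP* arrays of E11.5 against 9.24 and 9.03 in interstitial cells. From E11.5 to E12.5 in *αSma-EYFP* cells, 3 of the 13 fell in XX cells and 9 in XY cells, and at E12.5 5 were lower in XY than in XX cells, with means of 8.85 and 9.38. At E12.5 none of the 13 was called between *αSma-EYFP* and interstitial XX cells, where *Ptgs2* differed 3.98-fold. From E12.5 to E13.5 in XX *αSma-EYFP* cells none of the 13 was called (list median -0.2 on the log2 scale), while *Ptgs2* fell 2.83-fold. Endothelial cells of E11.5 had list means of 9.51 (XX) and 9.23 (XY) with *Ptgs2* at 6.55 and 6.66. Supporting cells at E11.5 also had lower list means (8.36 and 8.39). The part of cell handling in *Ptgs2* was not tested.

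**Figure D3:**
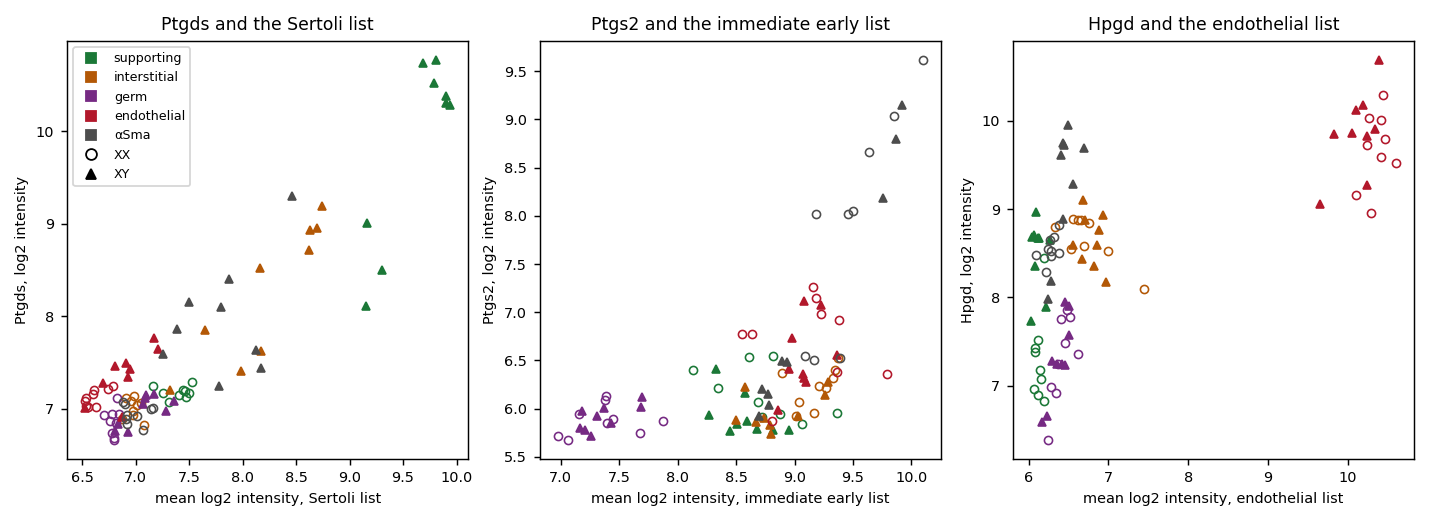
Log2 intensity of *Ptgds*, *Ptgs2* and *Hpgd* (vertical axes) against the mean log2 intensity of a list of genes on the same array (horizontal axes: 10 Sertoli, 13 immediate early and 9 endothelial genes), for 90 arrays, coloured by population, XX as open circles and XY as filled triangles. *Ptgds* rises with the Sertoli list in XY supporting, interstitial and *αSma-EYFP* arrays. *Ptgs2* is highest on *αSma-EYFP* arrays of E11.5, towards the top of the list's range. It is also high on XX *αSma-EYFP* arrays of E12.5, whose list mean lies within the range of endothelial arrays. *Hpgd* is high on endothelial arrays but also reaches 9.95 on *αSma-EYFP* arrays.

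Outside *αSma-EYFP* cells *Ptgs2* was low. It exceeded a log2 intensity of 6 on 16 of 18 endothelial, 10 of 18 interstitial, 7 of 18 supporting and 5 of 18 germ cell arrays. In endothelial cells of E12.5 the XX arrays gave 6.98, 7.26 and 6.77 and the XY arrays 7.12, 6.28 and 5.99. XX endothelial cells were above XX supporting (1.77-fold, adjusted p = 9.1e-04), interstitial (1.95-fold, adjusted p = 1.3e-04) and germ cells (2.04-fold, adjusted p = 2.5e-05), without overlap in any of these. For XY endothelial cells of E12.5 the excess was 1.56-fold to 1.60-fold, and without their replicate 1 it was 0.31 to 0.35 on the log2 scale (adjusted p from 0.23 to 0.336). Without replicate 2 of the XY interstitial cells the excess over these was 0.59 (adjusted p = 0.0558). Macrophage genes, a list of 12, were also higher in this sort, with group means from 7.15 to 7.81 in endothelial cells and from 5.65 to 6.12 elsewhere, and their part in *Ptgs2* was not tested.

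Of the receptor genes, *Ptger4* was highest in interstitial and *αSma-EYFP* cells of E11.5. The XX interstitial arrays of E11.5 gave 6.59, 7.08 and 7.45 and the XY arrays 7.17, 7.02 and 7.40. In *αSma-EYFP* cells the values were 7.08, 7.37 and 6.98 (XX) and 6.69, 7.11 and 7.16 (XY). These 4 groups overlapped each other, and XY interstitial arrays lay above every XY supporting, endothelial and germ cell array of that stage. XY interstitial cells of E11.5 exceeded supporting cells 1.64-fold (adjusted p = 3.5e-05), endothelial cells 1.63-fold (adjusted p = 1.8e-05) and germ cells 2.05-fold (adjusted p = 1.3e-09). *Ptger4* then fell 1.72-fold to E12.5 in XY interstitial cells (adjusted p = 2.6e-05). In the same step 2 of 13 immediate early genes fell, and 5 of 6 Leydig and 4 of 10 Sertoli genes rose. From E11.5 to E12.5 *Ptger4* also fell 1.45-fold in XX interstitial cells (adjusted p = 0.0154) and 1.43-fold in XY *αSma-EYFP* cells (adjusted p = 0.0111). Both falls were under the fold limit, and that in XX *αSma-EYFP* cells was 1.33-fold (adjusted p = 0.098). Over the 30 group means the correlation of *Ptger4* with the mean of the immediate early list was 0.71, and that of *Ptgs2* was 0.61, given as a description. The part of cell handling or of other cell types in *Ptger4* was not tested. The 18 germ cell arrays lay between 5.95 and 6.33.

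In endothelial cells *Ptger4* differed between the sexes late. At E13.5 the XY arrays read 6.97, 7.02 and 6.80 and the XX arrays 6.09, 6.06 and 6.48. The sexes did not overlap, and XX replicate 3 was nearest to the XY arrays. *Ptger4* was 1.65-fold higher in XY cells (1.37 to 1.99, adjusted p = 9.2e-05), and with *Ptgr1* it was 1 of 2 of the 7 genes called higher at this stage, where 2.78% of clusters were called higher. Genes of fetal Leydig cells moved with it. All 6 such genes measured were higher in XY endothelial cells at E13.5, with a mean of 10.41 against 6.43. At E12.5 all 6 were higher as well (8.42 against 6.36), while *Ptger4* was not called. In the comparison of XY with XX cells at E13.5, 3 of 9 endothelial genes were lower (list median -0.48 on the log2 scale), and 1 of 12 macrophage genes was higher (list median 0.42). From E12.5 to E13.5 in XY endothelial cells, 5 of the 12 macrophage genes rose. The part of Leydig cells, macrophages or the endothelial share of this sort was not tested. XY interstitial cells of E13.5, whose Leydig list had a mean of 9.68, gave 6.49, 6.99 and 6.67 for *Ptger4*.

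*Ptger2*, a receptor for prostaglandin E, was near the lower end of detection throughout. It exceeded a log2 intensity of 6 on 6 of 90 arrays, all XY, 4 of them endothelial and 2 germ cells. It passed the filter only through XY endothelial cells, with 5.74, 6.31 and 6.15 at E11.5 and 6.15, 5.82 and 6.01 at E12.5. The 90 arrays spanned 5.55 to 6.31, and no comparison of *Ptger2* between sexes, stages or populations was called.

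Of the genes of breakdown, *Hpgd*, the dehydrogenase that starts the inactivation of prostaglandins, was highest in endothelial cells among the 4 main populations. Its 18 endothelial arrays lay between 8.96 and 10.69, interstitial arrays between 8.10 and 9.10, and germ cell arrays between 6.39 and 7.95. At E11.5 endothelial cells exceeded supporting cells 4.92-fold in XX (adjusted p = 2.7e-11) and 3.60-fold in XY gonads (adjusted p = 2.3e-08), and germ cells 4.64-fold (adjusted p = 6.4e-11) and 4.38-fold (adjusted p = 2.1e-10). They were above each of the 3 other main populations in both sexes at E11.5 and E12.5 and in XY cells at E13.5. In XX cells at E13.5 the excess over interstitial cells, 0.61 on the log2 scale, was not called (adjusted p = 0.0758). In XY gonads of E13.5 the mean of *αSma-EYFP* cells, 9.81, was as high as that of endothelial cells, 9.70. The E11.5 XY endothelial arrays spread most, with 10.69, 9.27 and 9.85. Red blood and macrophage genes were also higher in the endothelial sort (group means of 6 red blood genes from 7.61 to 8.38, against 7.15 or less elsewhere), and their part was not tested. XY germ cells of E13.5 were below all other XY cells of that stage, with 7.28, 6.66 and 6.59. *Hpgd* was called lower in XY germ cells than in each of the 3 other main populations at E12.5 and E13.5. Each of these stages, taken singly, had 6.36% and 7.12% of clusters called so in XY germ cells, against 2.47% per group over all 24 groups. The low level was shared by XX germ cells, with means of 7.25 and 6.88 at these stages against 7.24 and 6.84 in XY germ cells. XX supporting cells were low as well (6.89 and 7.3).

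In supporting cells *Hpgd* was called higher in XY cells from E12.5. At E11.5 the arrays overlapped, with 8.65, 7.89 and 7.73 in XY and 7.18, 8.44 and 7.52 in XX cells. At E12.5 XY cells gave 8.35, 8.97 and 8.67 and XX cells 6.83, 6.96 and 6.89, and at E13.5 XY cells gave 8.68, 8.71 and 8.67 and XX cells 7.08, 7.38 and 7.43. The sexes were apart on all arrays of both stages. *Hpgd* was 3.41-fold higher in XY cells at E12.5 (2.37 to 4.91, adjusted p = 8.5e-08) and 2.62-fold at E13.5 (1.82 to 3.77, adjusted p = 1.6e-05). Its sex difference was 1.02 larger on the log2 scale at E13.5 than at E11.5, which was not called (0.27 to 1.76, adjusted p = 0.0533). The difference at E12.5 exceeded that of interstitial cells by 1.66 on the log2 scale (adjusted p = 7.2e-04) and that of germ cells by 1.78 (adjusted p = 1.4e-04). Such an excess cannot be told apart from reporter, which differed between XX and XY supporting cells alone. Against *αSma-EYFP* cells the excess was 0.90 at E12.5 (adjusted p = 0.102) and 0.15 at E13.5 (adjusted p = 0.83), neither of them called. From E11.5 to E12.5 XX cells fell 1.77-fold (adjusted p = 0.0389). Without XX replicate 2 of E11.5 that fall was 0.46 on the log2 scale (adjusted p = 0.458), and without any 1 of the 3 XX arrays of E12.5 it was 0.79 to 0.86 (adjusted p from 0.0811 to 0.106).

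*Hpgd* also rose in XY *αSma-EYFP* cells. These gave 8.89, 8.18 and 7.98 at E11.5, 9.69, 9.28 and 9.61 at E12.5 and 9.75, 9.95 and 9.72 at E13.5, while the 9 XX arrays stayed between 8.29 and 8.82. The first step was a 2.26-fold rise (adjusted p = 0.00172). XY exceeded XX cells 2.35-fold at E13.5 (1.64 to 3.39, adjusted p = 5.9e-04) and 1.83-fold at E12.5 (1.27 to 2.63, adjusted p = 0.0336). The call at E12.5 was lost without XX replicate 2 (log2 difference 0.79, adjusted p = 0.149), XX replicate 3 (0.87, adjusted p = 0.0988), XY replicate 1 (0.79, adjusted p = 0.162) or XY replicate 3 (0.83, adjusted p = 0.123). At E13.5 XY *αSma-EYFP* cells were 2.26-fold above XY interstitial cells (adjusted p = 0.00238), whose arrays gave 8.87, 8.43 and 8.59. The endothelial list had a mean of 6.45 on the XY and 6.28 on the XX *αSma-EYFP* arrays of E13.5, and the Leydig list 8.36 and 6.43, and the part of Leydig cells was not tested.

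*Ptgr1*, a reductase that acts on oxidised prostaglandins and leukotrienes, was high in somatic cells of the gonad and low in germ and endothelial cells at E11.5. Its XY supporting arrays of E11.5 gave 12.16, 12.32 and 12.34 and its XY germ cell arrays 8.45, 8.39 and 8.59, a 13.9-fold difference (adjusted p = 7.6e-31). XY supporting cells were above the other 3 main populations at every stage, and XX supporting cells at E11.5. The levels of supporting, interstitial and *αSma-EYFP* cells lay between 10.29 and 12.34 on every array.

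In germ cells *Ptgr1* was called different between sexes and between stages only where XY cells of E13.5 were compared. XY germ cells gave 8.65, 8.66 and 8.50 at E12.5 and 10.49, 10.96 and 10.98 at E13.5, while XX germ cells gave 8.72, 8.47 and 8.86 at E13.5. The XY arrays of E13.5 lay above all 15 other germ cell arrays, which spanned 8.39 to 8.97. The rise in XY cells was 4.63-fold (adjusted p = 2.4e-17), and at E13.5 XY exceeded XX germ cells 4.37-fold (3.49 to 5.46, adjusted p = 1.8e-17). Of the 7 genes it was the sole call in this comparison, where 5.85% of clusters were called higher in XY cells. The sex difference was 2.30 larger on the log2 scale at E13.5 than at E11.5 (1.84 to 2.76, adjusted p = 4.1e-12), and 1.24 larger than the one of supporting cells at E13.5 (0.78 to 1.70, adjusted p = 1.2e-05). In those supporting cells the reporter also differed between the sexes. The Sertoli list had a mean of 7.21 in XY and 6.78 in XX germ cells of E13.5, and 1 of its 10 genes was called higher in XY cells. The mean of the 8 germ cell genes was 10.94 in XY and 10.22 in XX cells.

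Elsewhere the sex differences of *Ptgr1* were smaller. In supporting cells it was 1.85-fold higher in XY cells at E13.5 (1.48 to 2.31, adjusted p = 8.0e-06), from 11.95, 11.96 and 11.81 against 11.06, 11.03 and 10.96. At E12.5 it was 1.57-fold higher (1.25 to 1.96, adjusted p = 9.9e-04), from 12.01, 11.99 and 11.92 against 11.13, 11.43 and 11.41, and without XX replicate 1 the difference was 0.55 on the log2 scale, under the fold limit (adjusted p = 0.0154). Both sets of arrays were apart. In endothelial cells of E13.5 the XY arrays gave 10.26, 10.18 and 9.87 and the XX arrays 8.65, 8.99 and 9.55, again without overlap, a 2.06-fold difference (1.64 to 2.57, adjusted p = 1.8e-06). There the Leydig list moved as it did for *Ptger4*, and 3 of 8 germ cell genes were higher in XY endothelial cells (list mean 7.24 against 6.62), and the part of either cell type was not tested.

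In *αSma-EYFP* cells *Ptgr1* was above interstitial cells at E11.5, 1.69-fold in XX (adjusted p = 0.00133) and 1.91-fold in XY cells (adjusted p = 5.8e-05). It fell in XY *αSma-EYFP* cells, from 12.14, 11.96 and 12.10 at E11.5 to 11.65, 11.14 and 11.33 at E12.5 and 10.57, 10.59 and 10.78 at E13.5. The 3 stages did not overlap, and the steps were falls of 1.62-fold (adjusted p = 0.00291) and 1.66-fold (adjusted p = 0.00557). Without XY replicate 2 of E12.5 the first was 0.58 on the log2 scale (adjusted p = 0.0568), and without XY replicate 1 of E12.5 the second was 0.59 (adjusted p = 0.173). The E12.5 excess over interstitial XX cells, 0.59 on the log2 scale (adjusted p = 0.0233), was lost without any 1 of 5 of its 6 arrays, at 0.53 to 0.59 (adjusted p from 0.0604 to 0.109).

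Other genes of the pathway were read from 5 lists, of which 29 genes were tested. Between XY and XX cells 33 of their 435 tests were called, 7.59%, against 5.28% of all tests, with 18 higher and 15 lower in XY cells and 14 genes called at least once. Among phospholipases, which release arachidonic acid, 6 of 120 tests were called. *Pla2g5* was 2.50-fold higher in XY supporting cells at E12.5 (adjusted p = 3.0e-06) and 2.03-fold at E13.5 (adjusted p = 2.8e-04), while *Pla2g4a* was 1.74-fold lower there at E12.5 (adjusted p = 0.00415). *Pla2g4c* was lower in XY germ cells of E13.5 (adjusted p = 5.6e-09), with a mean of 5.46, under the filter, against 6.69.

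Among other synthases 12 of 105 tests were called, 10 of them higher in XY cells. *Akr1b8*, an aldo-keto reductase whose close relatives make prostaglandin F, gave 7 of these 10. It was 2.66-fold, 4.14-fold and 5.22-fold higher in XY supporting cells of the 3 stages in turn (adjusted p = 0.00136, 6.1e-07 and 1.4e-08), 2.31-fold and 2.16-fold higher in XY interstitial cells after E11.5, and 2.39-fold and 2.86-fold in XY endothelial cells. Signal from its near-identical relatives on the same probes was not checked. *Hpgds*, the other prostaglandin D synthase, was 1.63-fold higher in XY endothelial cells of E13.5 (adjusted p = 0.0356), with a mean of 7.32 against 6.62, and its means in supporting cells lay between 5.26 and 5.43. *Prxl2b*, which also makes prostaglandin F, was 1.71-fold lower in XY supporting cells at E12.5 (adjusted p = 1.3e-04) and 1.91-fold lower at E13.5 (adjusted p = 4.9e-06). In endothelial cells of E13.5 it was 1.60-fold higher in XY cells (means 8.80 and 8.12, adjusted p = 0.00428).

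Among other receptors 4 of 90 tests were called, all in supporting cells. *Ptger1*, a receptor for prostaglandin E, was 2.36-fold higher in XY supporting cells at E12.5 (adjusted p = 5.0e-10) and 2.21-fold at E13.5 (adjusted p = 5.5e-09), with means of 7.76 and 7.76 against 6.52 and 6.62. *Ptger3* was called lower in XY cells of these stages, with means of 5.07 and 5.14 against 5.68 and 6.07. All but the last lay under the filter, so no fold is given. *Ptgdr2*, a receptor for prostaglandin D, was not called in any of the 15 comparisons, and *Ptgdr* did not pass the filter.

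Among genes of transport and breakdown 10 of 60 tests were called, 8 lower in XY cells. *Cbr3*, a carbonyl reductase, was lower in XY than XX supporting cells after E11.5 (1.88-fold and 2.75-fold, adjusted p = 1.7e-04 and 9.0e-09), and also in interstitial and *αSma-EYFP* cells of both later stages. In germ cells of E13.5 it was the other way, 4.42-fold higher in XY cells (means 8.61 and 6.47, adjusted p = 6.9e-14), the comparison in which *Ptgr1* was 4.37-fold higher. *Cbr1*, a close paralog of *Cbr3* counted above among the synthases, was 1.81-fold higher there (adjusted p = 6.0e-04), and *Abcc4*, an exporter of prostaglandins, 1.61-fold (adjusted p = 3.0e-05). *Slco2a1*, the prostaglandin importer, was 1.86-fold lower in XY endothelial cells of E12.5 (adjusted p = 0.00156), with a mean of 6.04, near the filter, against 6.94. *Ptgr2*, which acts on the same kind of substrate as *Ptgr1*, was 1.75-fold lower in XY *αSma-EYFP* cells of E13.5 (adjusted p = 7.3e-06). Of the 60 tests on leukotriene and lipoxygenase genes 1 was called, *Alox5ap* in endothelial cells of E11.5 (1.55-fold higher in XY cells, adjusted p = 0.0427). Its XX and XY arrays overlapped, and that XY group held the arrays farthest from their group.

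**Figure D4:**
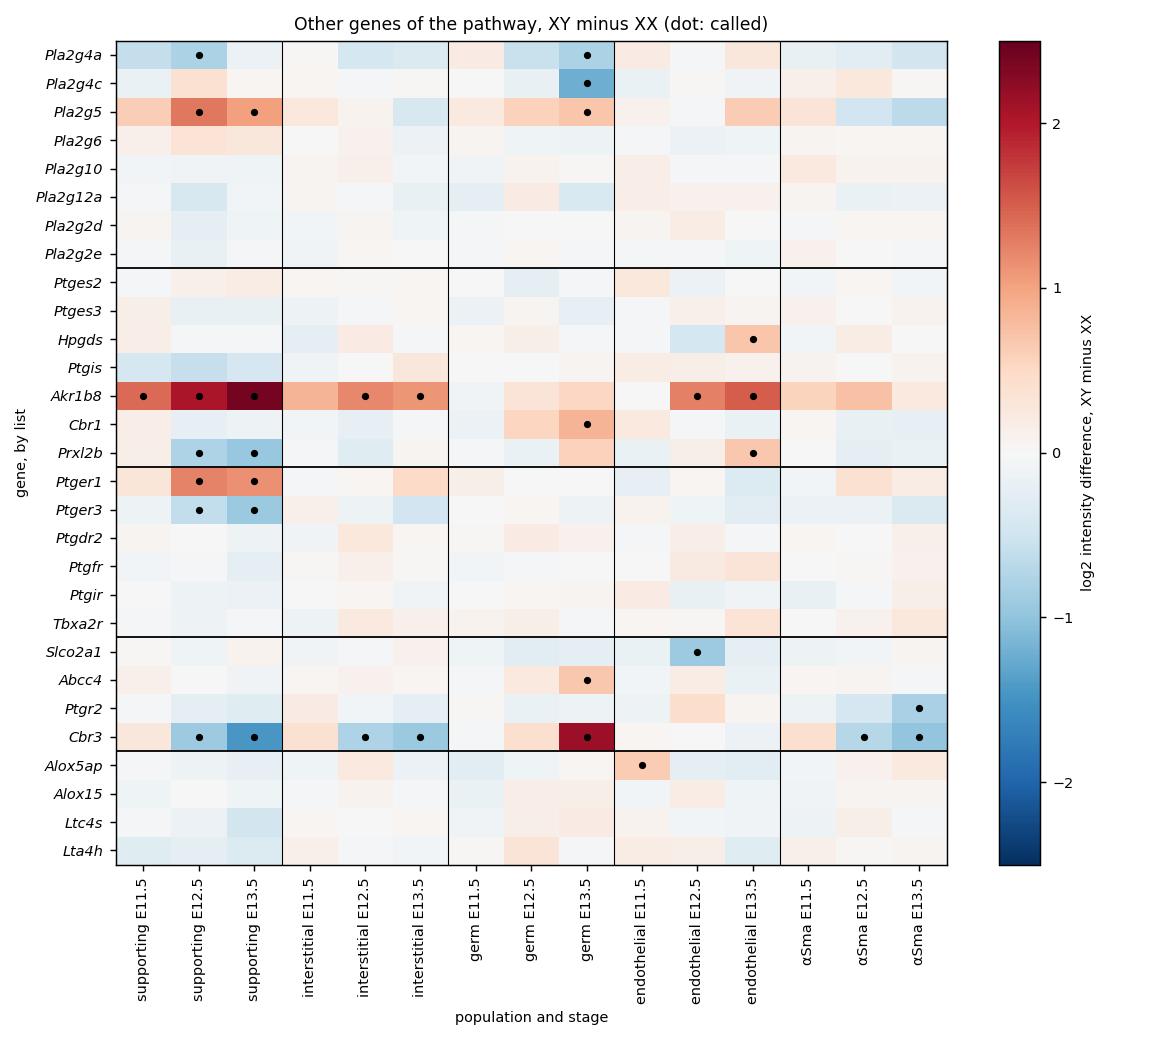
Log2 difference in intensity between XY and XX cells (colour, red higher in XY cells) for 29 other genes of the pathway (vertical axis, grouped by list from phospholipases at the top over synthases, receptors and genes of transport and breakdown to lipoxygenase genes) in 15 combinations of population and stage (horizontal axis). Dots mark the 33 called differences, of which *Akr1b8* holds 7, all higher in XY cells, and *Cbr3* 7, of which 1, in germ cells of E13.5, was higher.

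The genes whose pattern was most like that of each gene were named by the Pearson correlation of the 30 group means, over all tested genes, as a description. For *Ptgds* they were *Cstdc1* (0.975), *Gjb2* (0.975) and *Dtna* (0.974), for *Ptges* *Pgam2* (0.895), *Plppr4* (0.890) and *Chp2* (0.878), and for *Ptgs2* *Ch25h* (0.882), *Nr4a2* (0.826) and *Ankrd1* (0.819). For *Ptger4* they were *Rgs5* (0.863), *Mc2r* (0.848) and *Tent5a* (0.842), and for *Hpgd* *Efnb2* (0.909), *Mef2c* (0.907) and *Tagln2* (0.907). For *Ptgr1* they were *Wdr78* (0.931), *Gata4* (0.926) and *Plxnb1* (0.920). For *Ptger2*, whose levels were close to the filter, the highest value was 0.797 (*Amacr*), and among the 7 genes themselves the next pair after *Ptgds* and *Ptges* was *Ptgs2* with *Ptger4* (0.61).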

How the data were processed

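RNA of cells sorted by a reporter and amplified was hybridised to Affymetrix Mouse Gene 1.0 ST arrays. The deposited values are log2 intensities that the authors made with RMA in Partek Genomics Suite from GCOS files. The table held 35557 clusters on 91 arrays, with array medians from 6.56 to 6.81. The array of whole newborn mice entered no test. The reporter of the interstitial cells is not reported here. By the annotation, 21789 clusters had 1 gene, 1621 had several and 12147 were not listed. The study's filter on cross-hybridising probes was not applied.

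Clusters with 1 gene and a log2 intensity over 6 on at least 2 of 3 arrays of some group were kept (16859). A group mean was fitted to each of 30 groups with limma 3.58.1 in R 4.3.3 (60 residual degrees of freedom), on all 90 arrays, and contrasts were adjusted by Benjamini and Hochberg within each contrast. A difference was called at an adjusted p under 0.05 and a fold over 1.5. Intervals are at 95%. The study's methods used an unadjusted p under 0.05 with the same fold, which was tried as an alternative, as were other filters, quantile normalization, array weights, other sets of arrays, a block on replicate numbers and leaving out each array. Arrays carry no read depth, and 3 arrays per group limit the precision. The highest correlation between 2 arrays was 0.9943, and no array was taken for a copy of another.

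On simulated data with 200 changed clusters (XY minus XX supporting cells of E12.5, 16859 clusters) the fit recovered 98% of 2-fold and 100% of 4-fold changes, with 2 unchanged clusters called. The genes and lists were chosen with earlier results of these data known. Genes other than the 7 were named if they were among the 3 most alike in pattern, if they belonged to a pathway list and were called between XY and XX cells (up to 4 a list, by size), or as markers beside a result. *Prxl2b* was matched through an older symbol. *Ptgs1* was not analysed here. Tables and plots were made with Python 3.11.15, pandas 2.3.3 and matplotlib 3.10.9.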

Additional observations from a re-analysis of the deposited data

Results flagged for a closer look

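For 7 combinations of gene and population, the difference between XY and XX cells itself changed from E11.5 to E13.5, by an interaction term in the limma model (adjusted p under 0.05 and fold over 1.5). All 7 grew towards XY cells, out of 35 tested, where 5.73% of all tests were called. The log2 difference grew by 2.14 for *Ptgds* in supporting cells (95% confidence interval 1.64 to 2.64, adjusted p = 4.1e-10), by 0.74 for *Ptges* in supporting cells (0.46 to 1.03, adjusted p = 6.2e-05), by 2.30 for *Ptgr1* in germ cells (1.84 to 2.76, adjusted p = 4.1e-12) and by 1.04 for *Ptgr1* in endothelial cells (0.59 to 1.5, adjusted p = 0.00203). In supporting cells the reporter of XY cells also changed between these stages, which cannot be told apart from stage.

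The other 3 calls lay nearer the limit of the adjusted p, and leaving out 1 array was often enough to lose them. The growth of *Ptgds* in interstitial cells (0.85, 0.35 to 1.35, adjusted p = 0.0362) was no longer called without any 1 of 10 of its 12 arrays, at 0.61 to 0.87 (adjusted p from 0.0527 to 0.247). The growth of *Hpgd* in *αSma-EYFP* cells (1.32, 0.57 to 2.06, adjusted p = 0.0377) was no longer called without any 1 of 10 of its 12 arrays, at 1.13 to 1.37 (adjusted p from 0.0518 to 0.183). The growth of *Ptger4* in endothelial cells (0.69, 0.31 to 1.07, adjusted p = 0.0245) was no longer called without any 1 of 6 of its 12 arrays, at 0.62 to 0.67 (adjusted p from 0.0643 to 0.0937), among them replicate 2 of the E11.5 XY cells, which stood farthest from its group (0.64, adjusted p = 0.0891), nor with array weights (0.66, adjusted p = 0.104).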

How the results depend on the processing

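No direction reversed under any alternative run, and every count of called tests over the 7 genes stayed within 1.5 times its value. The 18 calls between XY and XX cells were 18 without a filter, with a filter at 7, with quantile normalization, with the limits of the methods and with the block on replicate numbers, and 20 with array weights. The same alternatives, save the block, gave 13 to 18 calls between stages (13 in the model as reported), 89 to 95 between populations (94), 7 to 9 between *αSma-EYFP* and interstitial cells (7), and 7 or 8 for changes of the sex difference (7). Without a fold limit the calls were 21 between sexes, 19 between stages, 125 between populations, 8 between *αSma-EYFP* and interstitial cells, 7 for changes of the sex difference and 29 for supporting cells against others (25). Leaving out each of the 90 arrays in turn gave 17 to 19, 11 to 15, 91 to 96, 6 to 8 and 6 to 8, and 24 to 26 for the 25 comparisons of supporting cells with others. Of 1614 single values refitted in this way 1459 kept their call or lack of one, 107 lost it and 48 gained it. Beside those given with the results, calls lost without 1 array included *Ptgds* between XY interstitial and germ cells of E11.5 (0.52 without interstitial replicate 1, adjusted p = 0.0261, under the fold limit), *Ptger4* between XX interstitial and supporting cells of E11.5 (-0.49 without interstitial replicate 3, adjusted p = 0.00763), and *Ptgr1* between XY germ and endothelial cells of E11.5 (-0.35 without endothelial replicate 1, adjusted p = 0.0708). In the fit without *αSma-EYFP* cells the fall of *Hpgd* in XX supporting cells was not called (-0.82, adjusted p = 0.0629). The cause of these changes was not tested.

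The replicate numbers of XX and XY arrays did not pair them throughout. In 1 of 15 combinations of population and stage all pairs correlated over 0.1, and 13 of 45 pairs did (median 0.05, range -0.31 to 0.36). Germ cell pairs of the same number correlated at 0.2, 0.23 and 0.08 at E11.5, 0.13, 0.14 and 0.21 at E12.5, and 0.17, 0.01 and 0.14 at E13.5. Germ cell pairs of different numbers reached 0, -0.01 and 0.03 at most, so germ cell arrays may have been paired. With the replicate number as a block (45 blocks, 30 residual degrees of freedom) 18 tests were called and none of the 22 single values changed its call. Each of the 7 genes had 1 cluster, so the alternative of another cluster gave no value. A log2 intensity near 6 is at the filter used here, which limits *Ptger2* (over 6 on 6 of 90 arrays) and *Ptgs2* outside *αSma-EYFP* cells, where absence cannot be told from a low level.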

Other observations

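The array of whole newborn mice, pooled animals and a sample of no gonad group, gave log2 intensities of 8.83 for *Ptgds*, 6.48 for *Ptgs2*, 7.37 for *Ptges*, 6.22 for *Ptger2*, 6.90 for *Ptger4*, 9.05 for *Hpgd* and 10.90 for *Ptgr1*. XY supporting cells after E11.5 lay above it in *Ptgds* on all 6 arrays, and all 45 XX arrays lay below it.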
